A study of Caenorhabditis elegans with 6 samples.

Results

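Cysteine, methionine and S-adenosylmethionine (SAM) metabolism was followed through 10 genes out of the 22416 with counts in whole Caenorhabditis elegans. The genes were taken by name: the transsulfuration enzymes cbs-1, cbs-2, cth-1 and cth-2, the cysteine dioxygenase cdo-1, the methionine cycle enzymes metr-1, sams-1 and ahcy-1, and the methyltransferase-like genes R08E5.1 and R08E5.3. The set was selected on the same RNAi comparison described here, in which cth-1 and R08E5.3 were already known to be higher, so their values under that comparison are a description and carry no test. All 10 passed the filter on low counts.

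In the methionine cycle, methionine synthase makes methionine from homocysteine, SAM synthetase turns methionine into SAM, the cell's main methyl donor, and adenosylhomocysteinase returns the spent product to homocysteine. Transsulfuration draws homocysteine out of that cycle: cystathionine beta-synthase joins it to serine, and cystathionine gamma-lyase cleaves the product to release cysteine. Cysteine dioxygenase then oxidises surplus cysteine. In C. elegans the SAM synthetase gene sams-1 is known for its link to phosphatidylcholine synthesis and fat storage, and cdo-1 is known as a target of the hypoxia-inducible factor HIF-1.

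The treated worms were fed HT115 bacteria expressing RNAi against the gtr-1 3'UTR, and the control worms HT115 with an empty vector (EV), in both cases over 2 generations. Both groups carried the same transgenes, pCL12 (human Abeta peptide 1-42 minigene under unc-54) and pRF4, in strain CL2006, and were pools of whole worms kept at 20 °C and collected on day 6 of adulthood. The unc-54 promoter drives the peptide in body wall muscle. Each group had 3 libraries, 1 in each of batches 2, 3 and 4, with total counts from 49467499 to 59812227 in the gtr-1 RNAi-labelled libraries and from 43067539 to 49990861 with the empty vector. The labels do not say whether batches were separate cultures. The error behind each p-value combines the scatter of 3 pairs with a trend over all genes, and may be partly technical.

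Gene counts of the RNAi target overlapped between the groups. gtr-1, a G protein-coupled receptor, had 38, 26 and 11 counts in the gtr-1 RNAi-labelled libraries of batches 2, 3 and 4, against 32, 16 and 12 counts in the EV libraries (log2 fold change 0.13 ± 0.30 SE, edgeR adjusted p = 0.886). The RNAi was directed at the gtr-1 3'UTR, and a count per gene does not separate reads of that stretch, which can include fragments of the RNAi itself, from reads of the rest of the transcript. These counts are therefore a limited check of the knockdown, and each direction given here rests on the label of the treated libraries. Markers of intestine, hypodermis, body wall muscle, germline, sperm and neurons were all detected, none of them at 0 in every library. Intestine markers summed to 1745 to 2744 CPM (counts scaled to library size in edgeR, with TMM factors) in the gtr-1 RNAi-labelled libraries, against 1237 to 2183 CPM with the empty vector. Most of that sum was asp-1, with 1735, 1277 and 1114 CPM in batches 2, 3 and 4, against 1328.5, 743 and 753 CPM. The fitted log2 fold change lay above 0 for 8 of 10 intestine markers. Their median log2 ratio was -0.11, 0.47 and 0.29 in the batch 2, 3 and 4 pairs. All 9 body wall muscle markers had fitted values below 0, with sums of 1885 to 2957 CPM against 2491 to 3318 CPM. Their median log2 ratio was -0.20, 0.08 and -0.48 in the batch 2, 3 and 4 pairs. All 12 germline and oocyte markers also had fitted values below 0, with 6871 to 11217 CPM against 7522 to 11126 CPM. Their median log2 fold change of -0.04 was close to the -0.03 of all genes tested. By pair the germline median was -0.15, 0.004 and 0.01. Hypodermis markers summed to 407 to 487 CPM against 407 to 426 CPM. Of these, 6 of 8 had fitted values above 0 (median 0.26), with pair medians of -0.02, 0.34 and 0.25. Neuron markers summed to 331 to 455 CPM against 359 to 424 CPM. Their fitted values split into 4 above 0 and 5 below (median -0.01), with pair medians of -0.06, 0.31 and -0.17. Sperm markers summed to 3.31 to 50.2 CPM against 10.2 to 41.2 CPM. Of 8 tested, 7 had fitted values below 0 (median -0.57), with pair medians of 0.29, -0.65 and -1.60. None of these markers was called in edgeR, while DESeq2 called act-5, ifc-2, vha-6 and asp-1 of the intestine higher and mlc-2 of muscle lower. Their part in the values below was not tested, and in whole worms fewer cells of a type and less RNA per cell cannot be told apart.

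Within transsulfuration, the gamma-lyase cth-1 was about 4-fold higher in the gtr-1 RNAi-labelled libraries. Its paralog cth-2 and the beta-synthases cbs-1 and cbs-2 had fitted log2 fold changes of 0.08, 0.12 and -0.07. For cth-2 and cbs-2 these values average over pairs that differed in sign. cth-1 (WBGene00009048, plus strand of chromosome V, 16100680 to 16102750 in WBcel235) had 36.7, 55.0 and 60.6 CPM in the gtr-1 RNAi-labelled libraries of batches 2, 3 and 4, against 9.10, 15.5 and 14.5 CPM in the EV libraries. Every treated library lay above every control library, and the lowest treated value, in batch 2, was paired with the lowest control value. The cth-1 level averaged 50.8 ± 12.5 CPM in the gtr-1 RNAi-labelled libraries and 13.01 ± 3.43 CPM with the empty vector (SD, n = 3 each). Fitted across the pairs, this was 1.97 ± 0.07 (SE) on the log2 scale. Pair by pair the fold was 4.04, 3.55 and 4.19 in batches 2, 3 and 4, with 95% counting intervals of 3.66 to 4.46, 3.26 to 3.88 and 3.86 to 4.56, which cover counting error only and overlap one another.

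The second cystathionine gamma-lyase gene, cth-2, did not share that difference. cth-2 (WBGene00022856, chromosome II, 7056184 to 7057960) had 146, 139 and 126 CPM in the gtr-1 RNAi-labelled libraries, against 97.7, 165 and 136 CPM in the EV libraries. The groups overlapped, and the sign differed between pairs: for cth-2 the batch 2 pair had a log2 ratio of 0.58, batch 3 of -0.24 and batch 4 of -0.10, around a fitted value of 0.08 ± 0.16 (SE). Set on 1 scale by exon length, cth-1 transcripts made up 20.5%, 28.8% and 33.0% of the sum of both gamma-lyases in the gtr-1 RNAi-labelled libraries, against 8.71%, 8.79% and 9.85% in the EV libraries. cth-2 was thus the more abundant gamma-lyase transcript in all 6 libraries. The sum of both was 138, 147 and 141.7 CPM per kb in the gtr-1 RNAi-labelled libraries, against 80.6, 136 and 113 CPM per kb with the empty vector.

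Of the cystathionine beta-synthases, cbs-1 (WBGene00013866, chromosome X, 10054275 to 10057528) had 35.4, 33.7 and 29.1 CPM in the gtr-1 RNAi-labelled libraries, against 34.5, 28.7 and 27.1 CPM with the empty vector. Each treated library was slightly above its own batch partner while the groups overlapped, and the fitted log2 fold change of cbs-1 was 0.12 ± 0.06 (SE). Its paralog cbs-2 (WBGene00018783, chromosome II, 2220396 to 2223567) was a low transcript, with 108, 70 and 82 counts in the gtr-1 RNAi-labelled libraries, against 78, 66 and 96 counts with the empty vector. For cbs-2 the log2 ratio was 0.49, -0.35 and -0.35 in batches 2, 3 and 4, with a fitted -0.07 ± 0.26 (SE), the only one of the 10 fitted values below 0. Leaving out single libraries moved cbs-2 between -0.36 and 0.13 and cth-2 between -0.17 and 0.30. Per exon length, the cbs-1 level was 16.01, 24.5 and 16.7 times that of cbs-2 in the gtr-1 RNAi-labelled libraries and 22.1, 16.2 and 12.2 times with the empty vector.

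**Figure D1:**
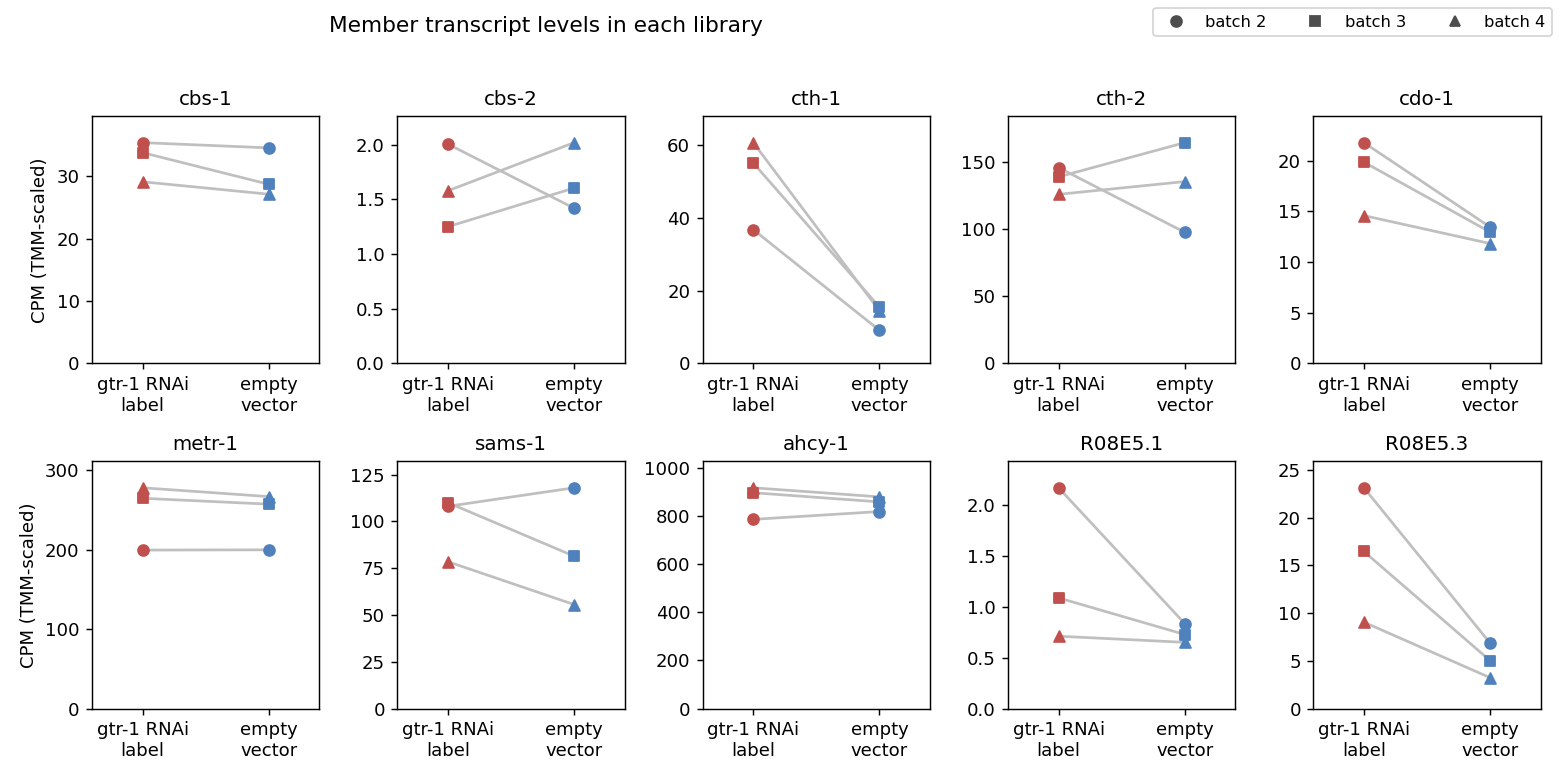
TMM-scaled CPM of each of the 10 genes (y axis, linear from 0) in the gtr-1 RNAi-labelled libraries and the empty vector libraries (x axis), with a marker shape for each batch and a line joining the libraries of 1 batch. For cth-1, R08E5.3 and cdo-1 all 3 treated libraries lie above all 3 control libraries; for the other 7 genes the groups overlap.

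Downstream of cysteine, cdo-1 (WBGene00018986, chromosome X, 862267 to 863578) was higher by a smaller factor. The enzyme converts cysteine to cysteine sulfinate, and cdo-1 had 21.8, 19.8 and 14.6 CPM in the gtr-1 RNAi-labelled libraries, against 13.5, 12.96 and 11.8 CPM in the EV libraries. The groups did not overlap, and in both of them batch 4 held the lowest value. cdo-1 averaged 18.7 ± 3.72 CPM in the gtr-1 RNAi-labelled libraries and 12.7 ± 0.835 CPM with the empty vector (SD, n = 3 each), a fitted log2 fold change of 0.54 ± 0.11 (SE). By pair it was 1.62-fold, 1.53-fold and 1.23-fold in batches 2, 3 and 4, the last with a counting interval of 1.10 to 1.38.

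The methionine cycle enzymes metr-1 and ahcy-1 lay close to their EV levels. metr-1 (WBGene00010988, chromosome II, 10926561 to 10931078), the vitamin B12-dependent methionine synthase, had 199.6, 265 and 278 CPM in the gtr-1 RNAi-labelled libraries, against 199.9, 257 and 267 CPM in the EV libraries. Treated and control libraries of the same batch were within a few percent of one another, and the fitted log2 fold change of metr-1 was 0.03 ± 0.03 (SE). ahcy-1 (WBGene00019322, chromosome I, 6836469 to 6838140), the adenosylhomocysteinase, had 786, 897 and 917 CPM in the gtr-1 RNAi-labelled libraries, against 818, 858 and 879 CPM in the EV libraries, with a fitted value of 0.02 ± 0.05 (SE). Both genes had the smallest standard errors of the 10.

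The SAM synthetase sams-1 (WBGene00008205, chromosome X, 11965962 to 11969893) differed between pairs in its direction. It had 108, 110.04 and 78.5 CPM in the gtr-1 RNAi-labelled libraries, against 118, 81.5 and 55.6 CPM in the EV libraries. The highest sams-1 value of all was the EV library of batch 2, and the lowest was the EV library of batch 4. By pair the log2 ratio of sams-1 was -0.13, 0.43 and 0.50 for batches 2, 3 and 4, and the fitted value of 0.27 ± 0.13 (SE) averages over these. With all libraries sams-1 did not pass (edgeR adjusted p = 0.528). Without the batch 2 pair, the one below 0, the sams-1 value was 0.47 ± 0.05 (SE), and it then passed in edgeR. That fit called 745 genes higher and 420 lower of 15147 tested, against 14 and 0 with all libraries. A difference between pairs has no test here, since each batch holds 1 library of each treatment.

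**Figure D2:**
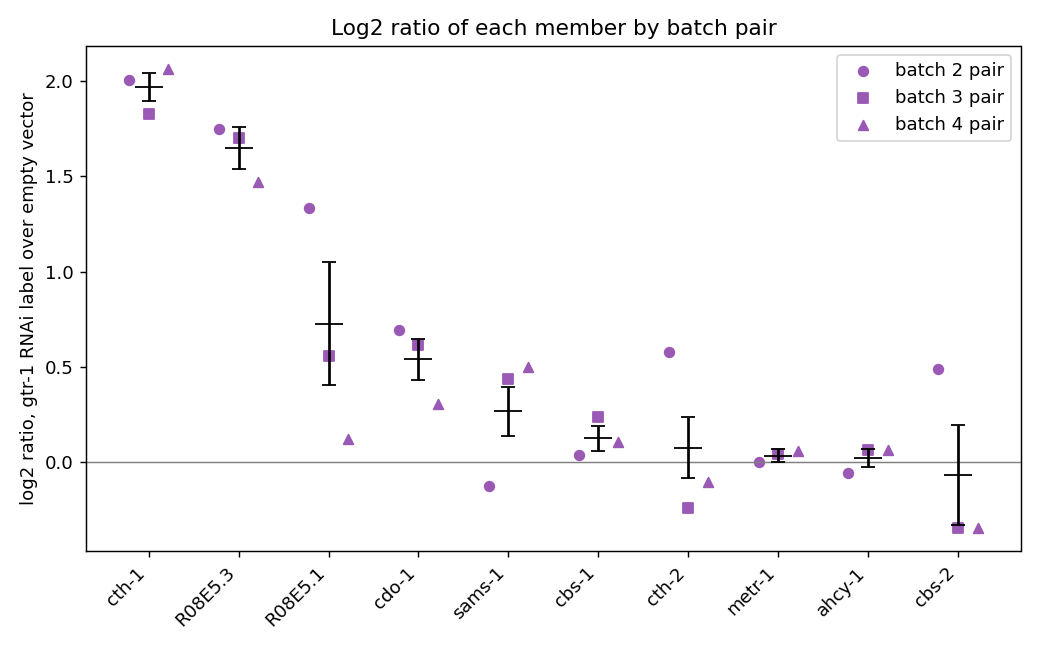
Log2 ratio of the gtr-1 RNAi-labelled libraries over the empty vector (y axis) for each gene (x axis), with 1 marker for each batch pair and a bar for the fitted value ± SE. The 3 pairs of cth-1 and of R08E5.3 lie together between 1.47 and 2.06, while those of cth-2, cbs-2, sams-1, metr-1 and ahcy-1 fall on both sides of 0.

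The methyltransferase-like genes R08E5.3 and R08E5.1 are neighbours on chromosome V on opposite strands, with their start sites side by side. The deposited description gives both a methyltransferase domain; their substrates are not named in the files. R08E5.3 (WBGene00019963, plus strand, 3772021 to 3774609) had 23.1, 16.5 and 9.05 CPM in the gtr-1 RNAi-labelled libraries of batches 2, 3 and 4, against 6.86, 5.03 and 3.24 CPM in the EV libraries. The groups did not overlap, and in both the level was highest in batch 2 and lowest in batch 4. R08E5.3 averaged 16.2 ± 7.04 CPM in the gtr-1 RNAi-labelled libraries and 5.04 ± 1.81 CPM with the empty vector (SD, n = 3 each). Its fitted log2 fold change was 1.65 ± 0.11 (SE), or 3.37-fold, 3.27-fold and 2.79-fold by pair, with counting intervals of 3.00 to 3.79, 2.81 to 3.82 and 2.32 to 3.37 that overlap.

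R08E5.1 (WBGene00019961, minus strand, 3769798 to 3771518) was far less abundant, and its values carry a wide counting error. It had 117, 61 and 37 counts in the gtr-1 RNAi-labelled libraries, against 46, 30 and 31 counts in the EV libraries. The ratio was 2.60-fold in batch 2 (counting interval 1.83 to 3.74), 1.49-fold in batch 3 (0.9504 to 2.397) and 1.09-fold in batch 4 (0.660 to 1.82). The batch 2 and batch 4 intervals only just fail to overlap. The fitted log2 fold change of R08E5.1 was 0.72 ± 0.32 (SE) and, without the batch 2 pair, 0.37 ± 0.30 (SE). Where the counting could split reads between genes of like sequence, as with these neighbours or the paired cth and cbs genes, their values are less certain; sequence identity was not analysed here.

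Across the transcriptome, 14 of 15519 genes tested were called higher in the gtr-1 RNAi-labelled libraries (0.0902%) and 0 lower (0%) at an edgeR adjusted p under 0.05. Of the 10 genes of cysteine, methionine and SAM metabolism, 2 were among those called higher, cth-1 and R08E5.3, for which the set was chosen. DESeq2 called 1.57% of all genes higher and 0.619% lower, and 3 of the 10 higher, with cdo-1 added. Every treated library lay above every control library in CPM for 2.92% of all genes tested and for 3 of the 10. The median log2 fold change of the 10 was 0.20, against -0.03 over all genes tested. Since the choice of the genes used this comparison, nothing is read from these counts. The calls over all genes depended on batch 4. Without the batch 4 pair, or without either of its libraries, edgeR called 0 genes higher and 0 lower of 16134, 16227 and 16264 tested. At an unadjusted p under 0.05, edgeR had 493, 495 and 498 higher. None of the 10 was thus called, while cth-1 then had log2 fold changes of 1.92 and R08E5.3 of 1.73. With batch as a block, a library without its partner adds almost nothing to the treatment contrast. These 3 fits thus rest on the same 2 pairs and are not separate checks of single libraries. R08E5.3 was also not called when a single batch 3 library was left out, at 1.62 and 1.68, where 9 genes in all were called higher in each fit. It was called without the whole batch 3 pair, at 1.62, where 170 genes were called higher and 81 lower. At a minimum count of 50, where 6 genes were called higher, R08E5.3 was not called. Without the batch term 1 of 15519 genes was called, and neither cth-1, at 1.96, nor R08E5.3, at 1.68, was.

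What the choice of genes did not use is how they differed between the batches, and 4 of the 10 did so with the treatment held as a term. Over all genes tested, 43.3% were called between batches 2, 3 and 4 at an edgeR adjusted p under 0.05, so 4 of 10 is near the background. metr-1 was lowest in batch 2, with a mean log2 CPM of 7.64, 8.03 and 8.09 in batches 2, 3 and 4 (edgeR adjusted p = 0.00412). cth-1 had the same order, with 4.20, 4.87 and 4.89 log2 CPM (edgeR adjusted p = 0.00593). In both genes the 2 libraries of batch 2 lay below the batch 3 and 4 libraries of the same treatment.

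The other 2 genes ran the opposite way across batches. R08E5.3 averaged 3.66, 3.19 and 2.45 log2 CPM in batches 2, 3 and 4 (edgeR adjusted p = 0.00582), and sams-1 averaged 6.82, 6.57 and 6.05 (edgeR adjusted p = 0.0311). By these means batch 2 was high for R08E5.3 and sams-1 and low for cth-1 and metr-1. For R08E5.3 batch 2 was highest within each treatment. For sams-1 it was highest only with the empty vector, since the gtr-1 RNAi-labelled libraries had 108 CPM in batch 2 and 110.04 in batch 3. The remaining 6 did not pass, with edgeR adjusted p from 0.0569 for cbs-1 to 0.631 for cbs-2. Without the batch 4 library labelled gtr-1 RNAi, 2 of the 10 passed (cth-1 and metr-1), where 3322 of 16227 genes did. Without the batch 2 EV library 7 of the 10 passed, where 7537 of 15597 genes did. These member counts too are read only against the background of their own fit.

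The transcripts spanned almost 3 orders of magnitude per exon length. With TMM-scaled CPM divided by exon length, ahcy-1 stood highest at 564 ± 45.9 CPM per kb in the gtr-1 RNAi-labelled libraries and 555 ± 20.2 CPM per kb with the empty vector (SD, n = 3 each), above 98.9% of the genes tested. Then came cth-2 at 103 ± 7.62 and 99.9 ± 25.2, metr-1 at 62.7 ± 10.6 and 61.1 ± 9.19, and sams-1 at 43.8 ± 7.83 and 37.7 ± 13.9 CPM per kb. At the low end were cbs-2 at 0.774 ± 0.182 and 0.807 ± 0.147, and R08E5.1 at 1.02 ± 0.586 and 0.572 ± 0.0719 CPM per kb. The gamma-lyase cth-2 was thus well above both beta-synthases in either group.

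The order between these ends depended on the group. In EV libraries cdo-1, at 16.1 ± 1.05 CPM per kb, and cbs-1, at 13.1 ± 1.70, preceded cth-1, at 10.04 ± 2.64, and R08E5.3 followed at 3.50 ± 1.26. In the gtr-1 RNAi-labelled libraries cth-1, at 39.2 ± 9.63 CPM per kb, stood beside sams-1 and above cdo-1, at 23.6 ± 4.70, while R08E5.3, at 11.25 ± 4.89, overlapped cbs-1, at 14.3 ± 1.42. Neighbours in the order whose libraries overlapped were sams-1 with cth-1, cbs-1 with R08E5.3 and R08E5.1 with cbs-2 in the gtr-1 RNAi-labelled libraries. With the empty vector the overlapping neighbours were metr-1 with sams-1, cdo-1 with cbs-1 and cbs-1 with cth-1.

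**Figure D3:**
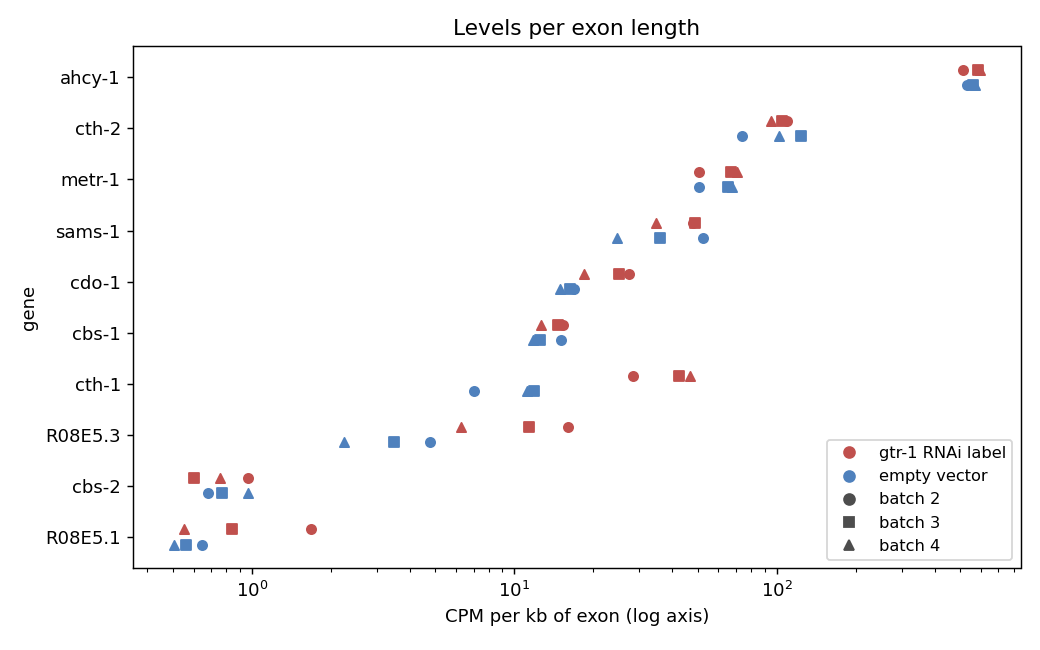
TMM-scaled CPM per kb of exon (x axis, log scale) of each gene (y axis, ordered by the mean in empty vector libraries), with gtr-1 RNAi-labelled libraries drawn above the empty vector libraries and a marker shape for each batch. ahcy-1 lies above 500 CPM per kb in all 6 libraries, and cth-1 is the gene whose place in the order shifts most between the groups.

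Of the genes around R08E5.3, cysl-3 and R08F11.1 lay close to their EV levels. cysl-3, a cysteine synthase-like gene, meets R08E5.3 tail to tail and overlaps 74 bases of its exons on the other strand. It had 37.0, 51.4 and 49.1 CPM in the gtr-1 RNAi-labelled libraries, against 37.3, 48.4 and 43.0 CPM with the empty vector (0.09 ± 0.06 on the log2 scale, SE; edgeR adjusted p = 0.615). R08F11.1, the next gene on, lay at -0.09 ± 0.12 (log2 fold change and SE; edgeR adjusted p = 0.801). About 32 kb from the start of R08E5.3 lies R08F11.4, which has the same deposited description as R08E5.3. It had 418, 523 and 152 counts in the gtr-1 RNAi-labelled libraries, against 131, 151 and 99 with the empty vector. R08F11.4 had a log2 fold change of 1.20 ± 0.26 (SE), higher in 3 of 3 pairs, which did not pass in edgeR (adjusted p = 0.237) and passed in DESeq2 (adjusted p = 0.00443).

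**Figure D4:**
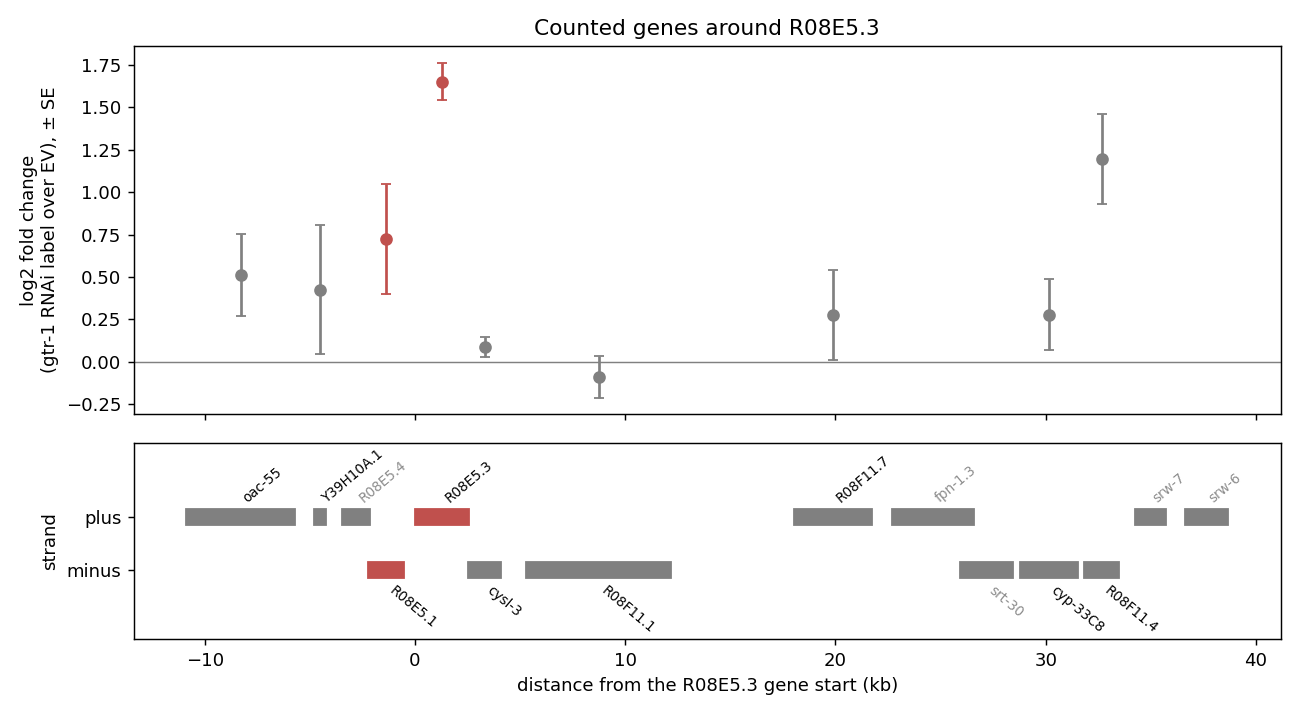
Log2 fold change ± SE (upper panel, gtr-1 RNAi-labelled libraries over empty vector) of the tested genes around R08E5.3 and their extents by strand (lower panel) against distance from the R08E5.3 gene start in kb; R08E5.1 and R08E5.3 are red, and genes named in grey were too low to test. R08E5.3 at 1.65 and R08F11.4 at 1.20 stand highest. Between them cysl-3 and R08F11.1 lie near 0, R08F11.7 at 0.27 and cyp-33C8 at 0.28. To the left of R08E5.3, oac-55, Y39H10A.1 and R08E5.1 lie at 0.51, 0.42 and 0.72.

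Other genes that share a deposited description with cth-1 or R08E5.3 were examined in place of relatives by sequence, a choice made after the data were seen. cbl-1, described like cth-1 as a gamma-cystathionase, had 37.2, 41.4 and 36.2 CPM in the gtr-1 RNAi-labelled libraries, against 16.9, 27.3 and 28.2 CPM with the empty vector. Its groups did not overlap, and its log2 fold change of 0.70 ± 0.15 (SE), higher in 3 of 3 pairs, did not pass in edgeR (adjusted p = 0.237) but did in DESeq2 (adjusted p = 0.000378). Of 6 further genes described like R08E5.3 and R08E5.1, 4 were tested. Besides R08F11.4, these were F25H2.12, Y55F3AM.11 and C01B10.8, with log2 fold changes of -0.10 ± 0.06, -0.13 ± 0.10 and -0.06 ± 0.06 (SE) and none past the threshold in either tool. K12D9.1, with at most 10 counts in a library, and Y40H7A.3, with at most 1, were too low to test.

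The wider pathway was described by 65 other genes in 4 lists taken by function, of which 60 were tested. With p adjusted over all 15519 genes, edgeR called 0 of these 60 higher and 0 lower, against 0.0902% and 0% of all genes. DESeq2 called 3 of the 60 higher (gldc-1, cysl-2 and comt-2) and 0 lower, against 1.57% and 0.619% of all genes. At an unadjusted p under 0.05 edgeR had 4 higher and 1 lower, against 4.99% and 5.68% of all genes tested. The median log2 fold change of the 60 was -0.01, close to that of all genes.

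Among 15 genes of the methionine cycle and the folate cycle that feeds it, 7 lay above 0 and 8 below, with a median log2 fold change of -0.02. gldc-1, the glycine decarboxylase of the glycine cleavage system, had 91.2, 84.1 and 68.5 CPM in the gtr-1 RNAi-labelled libraries, against 70.6, 69.9 and 56.6 CPM with the empty vector. It was higher in 3 of 3 pairs, at 0.30 ± 0.04 (log2 fold change, SE), and did not pass in edgeR (adjusted p = 0.0960) while it did in DESeq2 (adjusted p = 0.0107). The folate transporter folt-1, at 0.27 ± 0.13, and gcsh-1, the H protein of the same cleavage system, at 0.31 ± 0.16, did not pass in either tool. The SAM synthetase sams-5 had a log2 fold change of -0.62 ± 0.32 (SE), with 288, 37 and 34 counts in the gtr-1 RNAi-labelled libraries, against 280, 68 and 54 with the empty vector. The more abundant synthetases sams-3 and sams-4 lay at 0.05 ± 0.07 and -0.02 ± 0.04 (SE), and mtrr-1, which reactivates methionine synthase, lay at -0.03 ± 0.04.

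Among 15 tested genes of cysteine, sulfide and glutathione synthesis, 6 lay above 0 and 9 below. cysl-2, a cysteine synthase-like gene whose worm product acts as a cyanoalanine synthase, had 47.2, 55.3 and 35.6 CPM in the gtr-1 RNAi-labelled libraries, against 34.7, 22.4 and 16.8 CPM with the empty vector. All treated libraries lay above all control libraries. Its log2 fold change of 0.94 ± 0.17 (SE), higher in 3 of 3 pairs, did not pass in edgeR (adjusted p = 0.167) and passed in DESeq2 (adjusted p = 6.22e-06). cysl-1, another cysteine synthase-like gene, lay at 0.23 ± 0.13 and sqrd-1, the sulfide quinone oxidoreductase, at 0.27 ± 0.13 (log2 fold change, SE). The cystine transporter gene ctns-1 lay at -0.11 ± 0.03 and gcs-1, the rate-limiting enzyme of glutathione synthesis, at -0.08 ± 0.03 (log2 fold change, SE), and neither passed in either tool.

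SAM-dependent methyltransferases split evenly, with 9 above 0 and 9 below. comt-2, of the catechol-O-methyltransferase family, had 1.71, 2.04 and 2.099 CPM in the gtr-1 RNAi-labelled libraries, against 0.491, 0.583 and 0.694 CPM with the empty vector, a low level. This was the highest fold of the 60, at 1.73 ± 0.22 (log2 fold change, SE), higher in 3 of 3 pairs; it did not pass in edgeR (adjusted p = 0.0855) and passed in DESeq2 (adjusted p = 0.00714). The arginine methyltransferase prmt-1 lay at -0.11 ± 0.05, the amine N-methyltransferase anmt-3 at 0.23 ± 0.11 and the protein repair enzyme pcm-1 at -0.20 ± 0.10, none past the threshold in either tool. pmt-1 and pmt-2, which use SAM to make phosphocholine in worms, lay at 0.08 ± 0.08 and 0.15 ± 0.09.

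Of 12 regulators, 7 lay above 0. rhy-1, which acts with cysl-1 and egl-9 upstream of HIF-1 in worms, had 9.53, 10.9 and 10.3 CPM in the gtr-1 RNAi-labelled libraries, against 7.85, 8.60 and 5.53 CPM with the empty vector, with groups that did not overlap. The fitted log2 difference of rhy-1 was 0.51 ± 0.16 (SE; edgeR adjusted p = 0.393), and it passed in neither tool. hif-1 and egl-9 themselves lay at -0.0035 ± 0.05 and -0.0066 ± 0.06, while nhr-57, a known HIF-1 target, lay at 0.26 ± 0.13 and phy-2, a collagen prolyl hydroxylase, at 0.14 ± 0.06. nhr-114 and nhr-10, nuclear receptors known for responses to low vitamin B12 in worms, lay at 0.12 ± 0.15 and 0.02 ± 0.07, and nhr-49, a receptor of fat metabolism, at -0.09 ± 0.04.

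**Figure D5:**
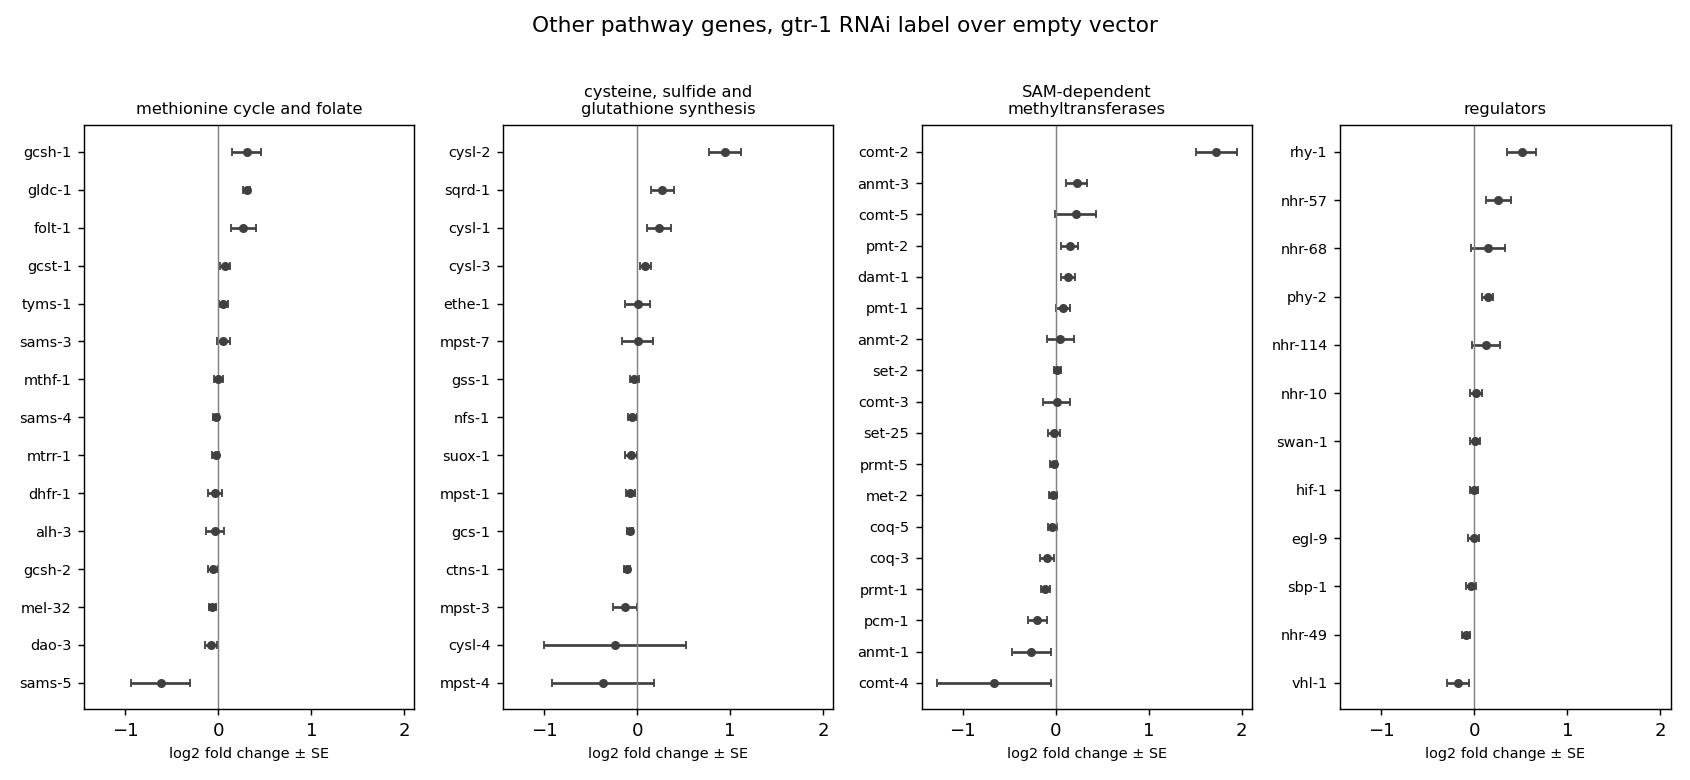
Log2 fold change ± SE (x axis, gtr-1 RNAi-labelled libraries over empty vector) of the 60 tested genes of the 4 pathway lists (y axis), in 1 panel for each list. Most lie near 0, with comt-2 at 1.73 and cysl-2 at 0.94 the farthest above it.

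Expression profiles most like those of cth-1 and R08E5.3 were read from log2 CPM over the 6 libraries, among 10696 other genes with a mean log2 CPM above 1. For cth-1 these were timm-17B.2 (Pearson r = 0.994), a mitochondrial import subunit, F01D5.1 (0.994) and sdz-31 (0.984), among 23 genes with r over 0.95. For R08E5.3 they were cox-6B (0.9995) and cox-4 (0.995), both cytochrome c oxidase subunits, and the aspartyl protease asp-2 (0.988), among 62 genes. The measure ignores size: cox-6B had 206, 201 and 191 CPM in the gtr-1 RNAi-labelled libraries, against 187, 182 and 176 CPM with the empty vector, a log2 fold change of 0.13 ± 0.03 (SE) where R08E5.3 had 1.65. The libraries share the batches and treatment, so these likenesses describe 6 points only.

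Annotated exon overlaps bear on 5 of the 10 genes, always on the opposite strand. Exons of cdo-1 overlap 127 bases of F56F10.2, which had 100 to 161 counts in the gtr-1 RNAi-labelled libraries and 97 to 170 with the empty vector. R08E5.1 shares 73 bases with R08E5.4, cth-2 shares 8 with ZK1127.3, and cbs-2 shares 30 with a non-coding RNA. R08E5.4 had at most 4 counts in any library. The sources used here do not give how overlapping reads were counted, nor whether strand was used.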

How the data were processed

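The mRNA libraries were made with a stranded KAPA kit, per the labels' protocols. Per the submitters' processing notes, the authors used DESeq2 1.36.0, HTSeq 2.01, TopHat2 2.1.1 and cutadapt 2.10 with build WBcel235; their settings and order are not stated there. The deposited counts cover 22416 genes. The authors also deposited a normalized signal (counts over 1 size factor per library) and batch-corrected scores, used here for 1 added alternative. Genes were tested across the transcriptome with edgeR 4.0.16 (R 4.3.3): minimum count 10 (15519 genes left), TMM, quasi-likelihood test with batch as a block, Benjamini-Hochberg adjustment. The same fit tested batches. DESeq2 1.42.0 was an alternative. The script was tested on simulated data. Fold changes of single pairs use log2 CPM with a prior count of 2, and folds with counting intervals use counts scaled by TMM. Exon lengths and coordinates are from Ensembl release 115 of WBcel235.

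Libraries were paired by their batch label. Across genes, deviations from group means correlated at 0.71, 0.47 and 0.66 for libraries sharing batch 2, 3 or 4, and at -0.71 to 0.52 otherwise. The 0.52 was between the batch 3 empty vector library and the batch 4 gtr-1 RNAi-labelled library. It exceeded the 0.47 of the batch 3 pair, so these correlations do not single out the batch 3 pairing. No library was a copy of another (within groups, chi-square over degrees of freedom was 22.5 to 133).

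The 10 genes and the lists were chosen with earlier results of these data known. The text names these 10, gtr-1, overlapping genes, genes of like description or profile and, from each pathway list, the 4 with the smallest p; other list genes, markers and neighbours of R08E5.3 were named after their values were seen. The planned search for relatives by protein sequence was not run.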

Additional observations from a re-analysis of the deposited data

How the results depend on the processing

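Calls depended on the processing; the cause was not tested. With no filter on low counts, a minimum count of 50, DESeq2 size factors, DESeq2 or no replicate block, 123, 6, 132, 244 or 1 of all genes were higher, against 14. The lower counts were 42, 0, 69, 96 and 0. Leaving out replicates gave 0 to 745 higher and 0 to 420 lower, with 0 and 0 in each fit lacking a batch 4 library; at an unadjusted p under 0.05, the fit without the batch 4 pair had 493 and 355. Of the 10 genes, 1 was higher at a minimum count of 50, 0 with no replicate block and 0 to 4 without replicates. The log2 fold change stayed between 1.92 and 2.102 for cth-1 and between 1.601 and 1.73 for R08E5.3 in these fits. It moved more for sams-1 (0.15 to 0.47), R08E5.1 (0.36 to 0.99), cth-2 (-0.17 to 0.30) and cbs-2 (-0.36 to 0.13), of which cth-2 and cbs-2 changed sign without being called. In the authors' batch-corrected values, an alternative added after seeing the data, cth-1 and R08E5.3 had 1.42 and 1.22 as log2 ratios of means. cdo-1 was called without the batch 2 pair, and sams-1 without that pair or either of its libraries. Those fits rest on the same 2 pairs and called many genes: 745 higher and 420 lower of 15147 without the pair. Without its gtr-1 RNAi-labelled library 561 were higher and 249 lower of 15673, and without its empty vector library 679 and 340 of 15597. Of the pathway lists, 1 gene was higher with no filter, 2 with DESeq2 size factors, 3 with DESeq2 and 0 to 4 without replicates. In the batch comparison, 1 of the 10 was called with no treatment term and 2 to 7 when a library was left out, against 3322 to 7537 of all genes. Levels per length changed by less than 1 SD with the longest transcript. Counts under about 100, as for R08E5.1 and cbs-2, limit precision.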

Other observations

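In the authors' deposited batch-corrected values, cth-1 had 2063, 2393 and 2511 in gtr-1 RNAi-labelled libraries of batches 2, 3 and 4, against 1113, 826 and 670 in the empty vector libraries. The empty vector library of batch 2, the lowest for cth-1 in the counts, is the highest of its group there. The ratio of group means was 2.67, against 3.94 in the authors' normalized values before that correction. For R08E5.3 these ratios were 2.33 and 3.19.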
